A study of Mus musculus with 3 samples.

Results

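Promoters of intermediate CpG density were examined in spermatogonia, the mitotic germ cells of the testis. They were the windows of 500 bp on each side of the annotated start of autosomal protein-coding genes that held 15 to 30 distinct CpG positions in the 3 deposited site lists combined. Of 20558 such genes, each with 1 start, 2879 had a window in this range, and 2690 of these held at least 10 methylation calls in each library and are the members described here. They were 2690 of 15526 promoters that met the same minimum of calls, beside 11060 CpG-dense promoters with over 30 positions and 1776 CpG-poor promoters with under 15. The windows of 76 members overlapped that of another member, and 8 of these members shared their start with another one.

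Whole-genome bisulfite shotgun sequencing was performed on FACS-purified spermatogonia of C57BL6/J mice at postnatal day 7, with an antibody to EpCAM used for the sort. The 3 groups were WT, *Pld6* KO and *Dnmt3l* KO, each a single library here, so that genotype and library cannot be told apart and no difference between genotypes was tested. The mutations were present in the whole animal and had been backcrossed to C57BL/6J, and which of the control genotypes the WT library came from is not given in the sources used here. Bisulfite leaves methylated cytosines and converts the others, so that each CpG on a read yields 1 call, and the methylation level is the number of methylated calls divided by all calls, from 0 to 1.

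Mammalian promoters range from CpG islands, which mostly stay unmethylated in every cell, to CpG-poor sequences, which carry the methylation of the surrounding genome, and those in between are known to differ between tissues. In male germ cells, methylation is erased early and set up again before birth by DNMT3A, DNMT3B and the rodent enzyme DNMT3C. DNMT3L, the product of *Dnmt3l*, has no catalytic activity and stimulates these enzymes, while PLD6 is a mitochondrial protein needed to make piRNAs, the small RNAs that direct methylation to young retrotransposons.

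The libraries held 43757722 calls in WT with a pooled level of 0.703, 64076569 in *Pld6* KO with 0.722, and 19289688 in *Dnmt3l* KO with 0.301. The median number of calls behind a member was 57 for WT (10 to 197), 77 for *Pld6* KO (16 to 399) and 24 for *Dnmt3l* KO (10 to 87). Intervals are 95% Wilson intervals that cover counting error only, and since calls on the same read are linked, they can be too narrow. Of 7 promoters with a maternal imprint, which are unmethylated in male germ cells and partly methylated in somatic cells, 6 had WT levels between 0.0118 and 0.0780, *Pld6* KO levels between 0.0377 and 0.148, and *Dnmt3l* KO levels between 0 and 0.0556. The annotated start of the seventh, *Snrpn*, had only 2 calls in WT. The promoter that carries this imprint is that of *Snurf*, with 11 of 25 WT calls methylated, a level above those of the other 6. It is described below.

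The sequences of 6 members are shown as examples, each from 250 bases before to 49 bases after the start, 5′ to 3′ along the gene. They were read from GRCm38.p6 and have every CG in capitals. The first is *Zfp109* (chr7:24252290-24252589, minus strand), which showed the largest decrease from WT in either mutant among well-covered members, those with 30 or more calls in each library. *A530016L24Rik* (chr12:112489144-112489443, plus strand) had the highest level in *Dnmt3l* KO among them. *Plaat3* (chr19:7557209-7557508, plus strand) had the most WT calls without a methylated one. The other 3 were added after their values were seen, namely *Muc2* (chr7:141690090-141690389, plus strand), which had one of the highest levels in *Dnmt3l* KO, *Dmp1* (chr5:104197325-104197624, plus strand), which was higher in *Pld6* KO, and *Neb* (chr2:52338749-52339048, minus strand), which was lower in *Pld6* KO.
Zfp109: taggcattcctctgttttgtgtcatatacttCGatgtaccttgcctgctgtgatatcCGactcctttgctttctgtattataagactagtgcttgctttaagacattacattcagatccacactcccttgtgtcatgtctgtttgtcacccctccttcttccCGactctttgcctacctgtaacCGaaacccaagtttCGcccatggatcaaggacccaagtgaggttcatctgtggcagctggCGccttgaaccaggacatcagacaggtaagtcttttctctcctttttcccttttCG
A530016L24Rik: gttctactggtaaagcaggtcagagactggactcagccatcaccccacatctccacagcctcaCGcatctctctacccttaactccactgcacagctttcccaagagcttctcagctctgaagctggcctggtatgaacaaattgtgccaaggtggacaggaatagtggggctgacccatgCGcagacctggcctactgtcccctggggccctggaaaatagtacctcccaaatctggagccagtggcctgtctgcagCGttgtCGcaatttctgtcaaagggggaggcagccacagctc
Plaat3: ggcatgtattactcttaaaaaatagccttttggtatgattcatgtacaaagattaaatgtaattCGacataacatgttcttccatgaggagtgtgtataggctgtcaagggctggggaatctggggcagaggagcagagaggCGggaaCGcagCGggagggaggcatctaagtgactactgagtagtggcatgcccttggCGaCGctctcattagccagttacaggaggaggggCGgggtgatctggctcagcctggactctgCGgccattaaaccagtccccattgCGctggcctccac
Muc2: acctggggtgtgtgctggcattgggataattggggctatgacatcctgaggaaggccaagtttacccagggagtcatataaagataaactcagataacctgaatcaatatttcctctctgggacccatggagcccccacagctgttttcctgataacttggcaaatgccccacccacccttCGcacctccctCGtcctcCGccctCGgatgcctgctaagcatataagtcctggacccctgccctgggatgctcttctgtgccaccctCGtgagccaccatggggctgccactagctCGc
Dmp1: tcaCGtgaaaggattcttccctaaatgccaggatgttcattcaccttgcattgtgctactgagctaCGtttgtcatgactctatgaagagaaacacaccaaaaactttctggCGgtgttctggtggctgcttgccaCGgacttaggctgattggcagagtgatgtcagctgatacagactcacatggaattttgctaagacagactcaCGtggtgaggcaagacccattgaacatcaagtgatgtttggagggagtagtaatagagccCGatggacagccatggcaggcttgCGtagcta
Neb: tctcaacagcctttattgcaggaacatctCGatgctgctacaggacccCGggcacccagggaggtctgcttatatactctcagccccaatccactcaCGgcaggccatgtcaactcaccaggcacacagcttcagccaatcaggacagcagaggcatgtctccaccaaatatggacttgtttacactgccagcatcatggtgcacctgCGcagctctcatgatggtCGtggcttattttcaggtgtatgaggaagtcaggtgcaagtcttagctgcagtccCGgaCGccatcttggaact
In the 300 bases shown, the 7 CGs of *Zfp109* had 23 methylated of 23 WT calls, 20 of 31 *Pld6* KO calls and 0 of 10 *Dnmt3l* KO calls. The 4 CGs of *A530016L24Rik* had 11 of 11, 15 of 18 and 3 of 4, and the 6 CGs of *Muc2* had 9 of 10, 19 of 19 and 10 of 14, in the same order. The 9 CGs of *Plaat3*, several of them close together before the start, had 0 of 21, 1 of 31 and 0 of 11. The 7 CGs of *Dmp1* had 0 of 7 WT calls methylated, 13 of 22 in the *Pld6* KO library and 0 of 10 in the other mutant. Those of *Neb*, also 7, had 12 of 19, 4 of 23 and 0 of 7. Members with the same number of CGs around the start therefore lay at both ends of the range in WT.

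The level of the members was spread over the whole range in WT. The median was 0.119, with quartiles of 0.0270 and 0.603, whereas CpG-dense promoters had a median of 0.00474 and CpG-poor promoters one of 0.812. Under 0.2 in WT lay 1638 members, or 60.9% (59.0 to 62.7%), against 82.9% of all promoters tested. Above 0.6 lay 673, or 25.02% (23.4 to 26.7%), against 12.7% of all promoters tested, and 379 lay in between. Of the CpG-dense promoters only 8 were above 0.6, and of the CpG-poor ones 72.4% were. A methylated call was absent in WT in 352 members, or 13.1%, against 32.1% of all promoters tested, and 20 members had every WT call methylated.

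**Figure D1:**
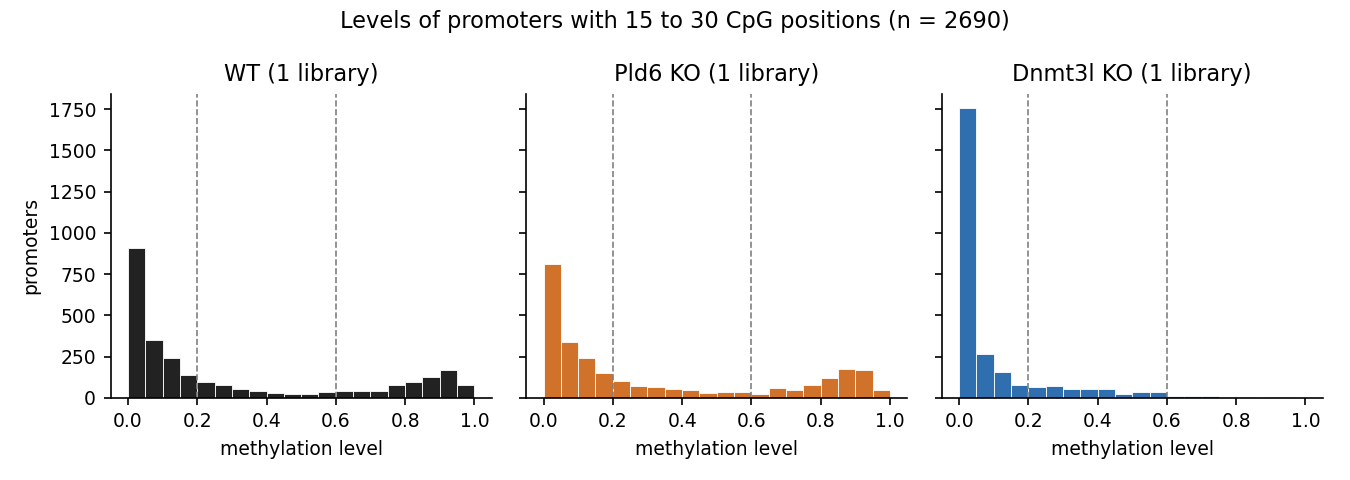
Number of members (vertical axis) by methylation level in bins of 0.05 (horizontal axis) in the single library of each genotype, with dashed lines at 0.2 and 0.6. WT and *Pld6* KO showed a large group near 0 and a second one around 0.9, and in *Dnmt3l* KO the second group was missing.

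In *Pld6* KO the median of the members was 0.137, and 716 members, or 26.6%, were above 0.6, against 13.3% of all promoters tested. Their levels followed those in WT across promoters, with Pearson's r = 0.959 over 2690 members, which share the 2 libraries and are not replicates. In *Dnmt3l* KO the median was 0, and the upper quartile was 0.0952. No methylated call was present there in 1435 members, or 53.3%, against 66.5% of all promoters tested, with a median of only 24 calls behind each level. Above 0.6 in *Dnmt3l* KO were 50 members, or 1.86%, against 1.12% of all promoters tested.

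Within the range, the level in WT depended on the number of CpG positions. Among members with 15 to 18 positions, 389 of 861, or 45.2%, were above 0.6 in WT. This share was 25.1% of 729 members with 19 to 22 positions and 13.5% of 593 with 23 to 26. Among 507 members with 27 to 30 positions, 21, or 4.14%, were above 0.6. The median in WT was 0.481, 0.138, 0.0638 and 0.0312 in these 4 groups, and 0.545, 0.169, 0.0762 and 0.0348 in *Pld6* KO. In *Dnmt3l* KO it was 0.0714 in the first group and 0 in the other 3.

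At the lower edge of the range, promoters with 14 positions, just outside, had a median of 0.723 in WT, and those with 15 had 0.694. At the upper edge, the median was 0.0316 with 30 positions and 0.0182 with 31. The shares above and under the limits crossed within the range, and with 18 positions 39.7% of 189 members were above 0.6 and 40.2% were under 0.2. Across the members the number of positions and the WT level had r = -0.438 and Spearman's rho = -0.463. The ratio of observed to expected CpGs in the window gave rho = -0.530, and the GC content of the window gave 0.102. All of these describe promoters of the same libraries, and positions that no read covered are missing from the count.

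**Figure D2:**
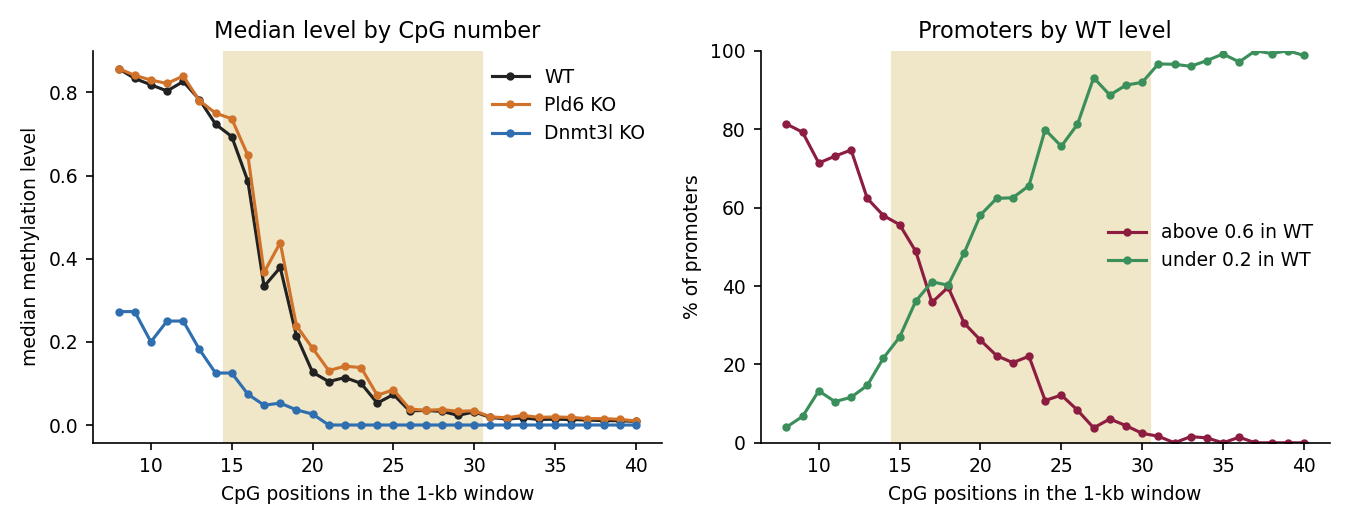
Median level in each library (left) and share of promoters above 0.6 and under 0.2 in WT (right) against the number of CpG positions in the 1-kb window, for promoters with 8 to 40 positions and the members' range shaded. The WT median went from 0.694 with 15 positions to 0.0316 with 30, and the shares crossed between 16 and 17 positions.

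Members above 0.6 and under 0.2 in WT had nearly the same GC content, with medians of 51.6% and 50.5%, and differed in CpG content. The first had a median of 18 positions and an observed to expected ratio of 0.282, the second 23 positions and a ratio of 0.385. The GC content of the surrounding 100 kb had medians of 47.9% and 44.1%. The flanks at 2 to 10 kb from the start were methylated alike, with median WT levels of 0.758 and 0.792, and the level of the flank and that of the promoter had r = -0.0215 over 2679 members with enough calls.

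The methylation around the start took a different form in each of these groups. Pooled over all members in bins of 100 bp, the WT level was 0.649 at 5 kb before the start, 0.199 in the first 100 bp after it and 0.175 at 500 bp after it. It was back at 0.570 at 3 kb after the start. In *Dnmt3l* KO the same bins had 0.290, 0.0637, 0.0533 and 0.273, so that the dip was present at a lower overall level. Members under 0.2 in WT had 0.185 at 500 bp before the start and 0.0360 just after it, and at 1 kb after the start they were still at 0.113. Members above 0.6, which were chosen by the WT level, showed no dip in WT, with 0.814 just before the start against 0.678 at 3 kb before and 0.529 at 3 kb after it. In *Pld6* KO, whose values did not enter that choice, the same members had 0.833, 0.719 and 0.602 at these places.

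**Figure D3:**
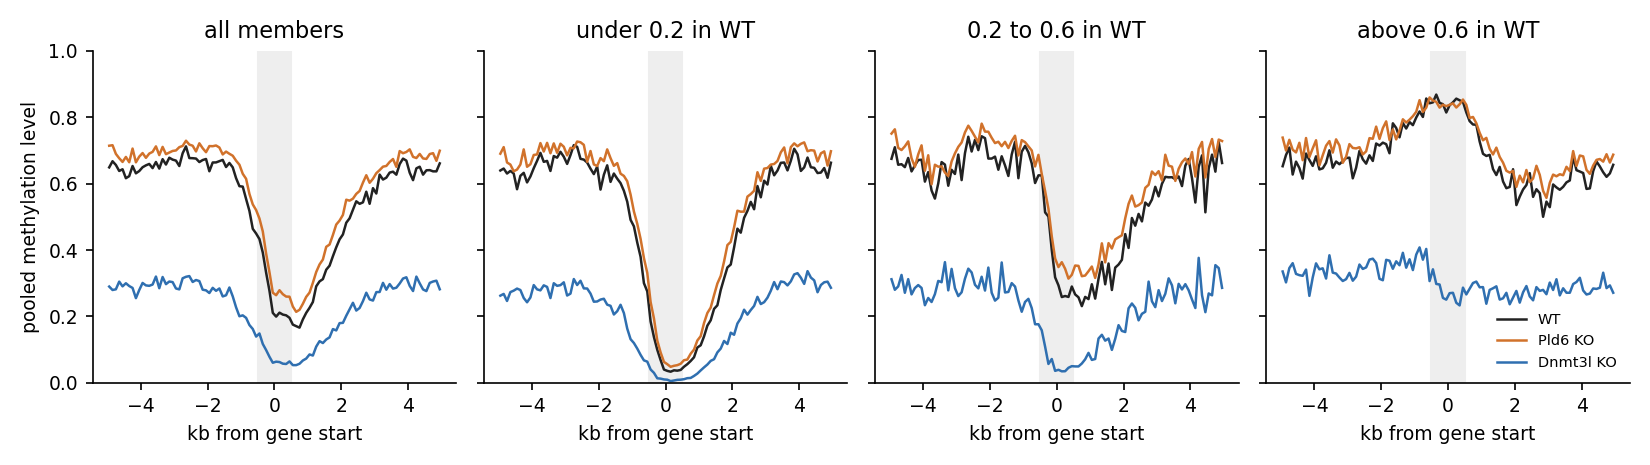
Pooled methylation level (vertical axis) in bins of 100 bp from 5 kb before to 5 kb after the gene start (horizontal axis) for all members and for members grouped by their WT level, with 1 line for each library and the 1-kb window shaded. Members under 0.2 in WT showed a dip that reached past 1 kb after the start, members above 0.6 showed a plateau over the window in WT and *Pld6* KO, and the middle group had an edge before the start.

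Many members between 0.2 and 0.6 in WT had an edge of methylation inside the window. Among 299 of them with at least 10 WT calls both before and after the start, the median was 0.476 before it and 0.241 after it. The level before the start was higher by at least 0.3 in 127 of these members and the level after it in 23. In *Pld6* KO the same comparison gave medians of 0.558 and 0.303 over 338 members, with 119 and 16. Single sites with at least 5 WT calls in the middle group were at most 0.2 in 44.7%, at least 0.8 in 11.6% and in between in 43.7%, so that many single CpGs were partly methylated as well.

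In *Dnmt3l* KO, 766 members were lower than in WT by at least 0.3. They were 28.5% (26.8 to 30.2%) of the members, against 13% of all promoters tested, 69.5% of CpG-poor and 0.108% of CpG-dense ones. No member was higher by as much, against 0% of all promoters tested. By direction alone, 2217 members had a lower level in *Dnmt3l* KO, 154 a higher one, and 319 the same level. Of 1776 CpG-poor promoters 1709 had a lower level there, and of 11060 CpG-dense ones 5358 did. Of the 1638 members under 0.2 in WT, 1257 had no methylated call in *Dnmt3l* KO. The median member had 24 calls there and 57 in WT, and the part of depth in the counts by direction was not tested. Of the 766 lower members, 747 stayed within 0.3 of WT in *Pld6* KO, 9 were lower there and 10 higher. Staying within 0.3 was the rule in *Pld6* KO. Of all 2690 members 10 were lower and 36 higher, and of all promoters tested 0.167% and 0.541%. Between the 2 mutants, 851 members, or 31.6%, were higher in *Pld6* KO than in *Dnmt3l* KO by at least 0.3, against 14.1% of all promoters tested.

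**Figure D4:**
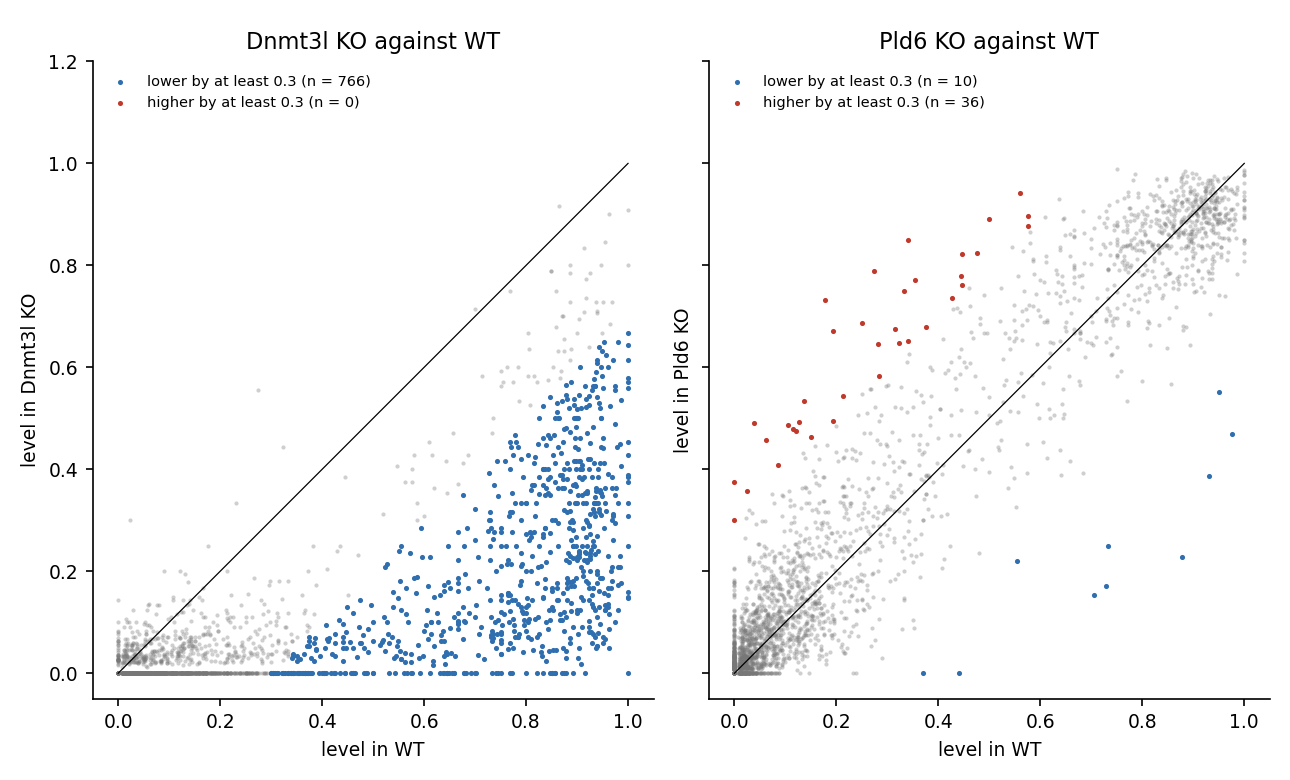
Level of each of the 2690 members in *Dnmt3l* KO (left) and *Pld6* KO (right) against its level in WT, with the line of equal levels and members that differed by at least 0.3 in colour. In *Dnmt3l* KO 766 members lay under the line by that much and 0 above it, and in *Pld6* KO 10 lay under it and 36 above it.

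The largest differences among the 868 well-covered members were as follows. *Zfp109*, a zinc finger gene, had 38 of 40 WT calls methylated, 48 of 87 for *Pld6* KO and 2 of 34 for *Dnmt3l* KO. *Urad*, an enzyme of uric acid breakdown, had 59 of 65, 119 of 134 and 1 of 56. *Osbpl7*, an oxysterol-binding protein, had 51 of 58, 66 of 97 and 0 of 32. The next were 3 genes of other tissues or of signalling. *Cdh5*, the cadherin of the vessel wall, had 46 of 51, 65 of 87 and 1 of 33 calls methylated in the same order. *Hcar2*, the receptor for niacin, had 80 of 85, 83 of 93 and 4 of 51. *Axin1*, a scaffold protein that limits Wnt signalling, had all 60 WT calls methylated, 132 of 135 for *Pld6* KO and 5 of 34 for *Dnmt3l* KO. The listed starts of *Axin1*, *Zfp109* and *Osbpl7* had no curated transcript start within 50 bp. Other transcripts of *Axin1* and *Zfp109* began at windows with up to 102 and 32 positions. In each of the 6 the interval in *Dnmt3l* KO lay under that in WT, which follows from their choice by this difference. In *Zfp109* and *Osbpl7* the interval in *Pld6* KO lay under that in WT as well. The difference between WT and *Pld6* KO in *Osbpl7* was 0.199, under the 0.3 used for counts. *Zfp109* had 0.950 (0.835 to 0.986) in WT and 0.552 (0.447 to 0.652) in *Pld6* KO, and *Osbpl7* had 0.879 (0.771 to 0.940) and 0.680 (0.582 to 0.765).

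Of the 673 members above 0.6 in WT, 269 were under 0.2 in *Dnmt3l* KO, as were 2255 of all members and 90.9% of all promoters tested, 284 were from 0.2 to under 0.5 and 120 were at 0.5 or more. No methylated call was left in 37. Their median level was 0.871 in WT and 0.866 in *Pld6* KO but 0.259 in *Dnmt3l* KO, and the median ratio of *Dnmt3l* KO to WT was 0.308, with quartiles of 0.148 and 0.485. The ratio fell with the number of CpG positions, from 0.341 with 15 to 18 positions through 0.270 and 0.248 to 0.172 with 27 to 30, where it rests on 21 members. Promoters just outside the range had 0.375 with 10 to 14 positions and 0.124 with 31 to 35, the last from 6 promoters. The number of calls in *Dnmt3l* KO grows with the number of positions, and its part in this order was not tested.

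The ratio also moved with the GC content of the 100 kb around the promoter. In the 169 of these members with the lowest GC content, from 32.5 to 45.2%, it was 0.243, and in the 168 with the highest, from 49.9 to 56.3%, it was 0.376. The 168 whose flanks were least methylated in *Dnmt3l* KO had 0.250, and the 168 whose flanks were most methylated had 0.383. At like GC content of the surroundings, members had a lower ratio than CpG-poor promoters that were above 0.6 in WT. From 38 to 42% GC it was 0.176 against 0.255, and from 42 to 46% it was 0.253 against 0.357. From 46 to 50% it was 0.313 against 0.449, and from 50 to 54% it was 0.379 against 0.434. The WT medians in these bins lay between 0.828 and 0.880 for both classes.

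A level of at least 0.5 in *Dnmt3l* KO was found in 121 members, or 4.50%, against 2.65% of all promoters tested, and in 18 members that were above 0.6 in WT the lower bound of the interval reached 0.5. The highest level among well-covered members was that of *A530016L24Rik*, an unnamed gene, with 93 of 99 WT calls methylated, 97 of 115 for *Pld6* KO and 22 of 31 for *Dnmt3l* KO. Its listed start had no curated transcript start within 50 bp. *Cacna1d*, a voltage-gated calcium channel, had 36 of 40, 54 of 64 and 22 of 33. *Muc2*, the main mucin of the gut, had 31 of 35, 54 of 56 and 24 of 39. These 3 kept over 0.6 of their calls methylated without DNMT3L. *Padi1*, a skin enzyme that modifies arginine, followed with a *Dnmt3l* KO level of 0.594, *Tnni1*, the troponin I of slow muscle, with 0.575 and *Angptl8*, a hormone of liver and fat, with 0.543. With fewer calls, *St6galnac6*, a sialyltransferase, had 22 of 24 calls methylated in *Dnmt3l* KO and *Gper1*, a membrane receptor for oestrogen, 20 of 25, and both were chosen after their values were seen.

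In *Pld6* KO, 10 members were lower than in WT by at least 0.3, or 0.372% (0.202 to 0.683%), against 0.167% of all promoters tested. In 6 of the 10, from 45.4 to 90.1% of the window was masked as repeats in the reference, and the lowest share among the 10 was 18.8%. Their median share of masked bases was 51.1%, against 11.1% in all members, and 8 of the 10 had at least 25%, as 12.3% of all members did. Among members above 0.6 in WT, 0 of 350 with under 10% masked bases were lower in *Pld6* KO, 0 of 252 with 10 to under 25%, 2 of 60 with 25 to under 50% and 5 of 11 with 50% or more. In *Dnmt3l* KO, 9 of the 10 were under 0.2, near the 83.8% of all members and the 90.9% of all promoters tested. Their flanks at 2 to 10 kb had median levels of 0.689 in WT and 0.776 in *Pld6* KO. The flank was lower in *Pld6* KO than in WT for some of them, among them *Tmc2*, with 0.927 and 0.842.

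*Tmc2*, a channel protein of the inner ear, showed the largest difference, with 58 of 66 WT calls methylated, 20 of 88 for *Pld6* KO and 1 of 23 for *Dnmt3l* KO, and 56.9% of its window was masked. *Neb*, the giant muscle protein nebulin, had 43 of 61, 15 of 98 and 1 of 28, with 64.0% masked. *Gm37116*, an unnamed gene, had 39 of 40, 31 of 66 and 1 of 10, with 68.0% masked. The promoters of 2 others matched the retrotransposon amplicons of the study within 2 kb of the start, by at least 80% identity over 100 bp. *Sult2a4*, a sulfotransferase, matched L1Md_A, a young L1 element, and had 27 of 37, 6 of 35 and 3 of 10 calls methylated. *Zfp109* matched RLTRETN_Mm, the long terminal repeat of an ETn element. In all, 24 members had such a match, and the other 22 were not lower in *Pld6* KO by 0.3.

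The remaining 5 were *Fbxw23*, an F-box gene, with 54 of 58, 22 of 57 and 2 of 12 calls methylated in the same order, the olfactory receptors *Olfr976* and *Olfr601*, *Akap7* and *Snurf*. *Olfr976* had 22 of 30, 9 of 36 and 1 of 16, with 90.1% of its window masked. *Akap7*, an anchor of protein kinase A, had 56 of 101, 21 of 95 and 1 of 37, and its window was masked to a share between 25 and 50%. *Olfr601*, with 10 of 27, 0 of 41 and 1 of 12, had the lowest share of masked bases, 18.8%. *Snurf*, whose promoter carries the maternal imprint of the *Snrpn* locus, had 11 of 25, 0 of 34 and 2 of 28. Its WT calls lay on 14 sites with at most 2 calls each, so that few reads stand behind the WT level of 0.440 (0.267 to 0.629). *Snurf* counts as lower in *Pld6* KO through this value. It lay above the WT levels of the other maternal imprints given above, and the reason was not tested.

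Higher in *Pld6* KO than in WT by at least 0.3 were 36 members, or 1.34% (0.968 to 1.85%), against 0.541% of all promoters tested. The level in *Pld6* KO was above that in WT in 1499 members and under it in 1048. The median difference of WT minus *Pld6* KO was -0.00887. The other classes leaned so too, with 5602 above and 3926 under among CpG-dense promoters and 949 and 794 among CpG-poor ones. At the upper end it was the other way, with a 90th percentile of the members of 0.893 in WT and 0.886 in *Pld6* KO. No methylated call was present in 352 members in WT and 265 in *Pld6* KO, against 32.1% and 21.2% of all promoters tested. The WT library held fewer calls, and the part of depth in these counts was not tested. Of the 36, 21 lay from 0.2 to 0.6 in WT and 15 under 0.2, and 31 were under 0.2 in *Dnmt3l* KO, a share near the 83.8% of all members. There, 16 of the 36 had no methylated call, against 53.3% of all members. Their median masked share was 12.8%, and 11 of the 36, or 30.6%, had at least 25% masked, against 12.3% of all members. Higher in *Pld6* KO were 15 of 1211 members with under 10% masked bases, 10 of 1147 with 10 to under 25%, 8 of 304 with 25 to under 50% and 3 of 28 with 50% or more. With at least 20 calls in each library, 23 members were higher in *Pld6* KO by this much and 5 were lower. In *Fkbp6*, which encodes an immunophilin of the piRNA pathway and of meiosis, 10 of 56 WT calls were methylated, against 41 of 56 for *Pld6* KO and 0 of 19 for *Dnmt3l* KO. *Trim50*, which starts 75 bp away on the other strand, shares most of these calls and counts as a second member. Neither start lay within 50 bp of a curated transcript start of its gene. Other transcripts of *Fkbp6* and *Trim50* began at windows with up to 58 and 32 positions.

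Among well-covered members, *Zdhhc25*, a palmitoyltransferase, had 15 of 44 WT calls methylated, 79 of 93 for *Pld6* KO and 2 of 32 for *Dnmt3l* KO. *Dmp1*, a matrix protein of bone and teeth, had 2 of 53, 29 of 59 and 0 of 31. *Abcc6*, a transporter of liver and kidney, had 29 of 61, 47 of 57 and 2 of 34. In these 3 the *Pld6* KO level was the highest and the *Dnmt3l* KO level the lowest. *Tagln*, the smooth muscle protein transgelin, had levels of 0.0851, 0.408 and 0.0714 in the same order, *Gm33887* had 0.314, 0.676 and 0, and *Dcst1* had 0.447, 0.762 and 0.0488. Of the well-covered members lower in *Pld6* KO, *Zscan5b*, with 0.328 in WT and 0.0877 in *Pld6* KO, and *Ndrg4*, with 0.411 and 0.224, differed by under 0.3.

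Lists of genes by role showed which promoters lay in each state, described by counts without a test. Genes of germ cell identity had 8 members, and all 8 were under 0.2 in WT, against 60.9% of all members and 82.9% of all promoters tested. The pluripotency factor *Lin28a* had 0 of 92 calls methylated in WT, *Dppa3* (also called Stella), which protects methylation in the early embryo, had 5 of 75, and the spermatogonial transcription factor *Sohlh1* had 11 of 71. At such levels a decrease by 0.3 was not possible. The 3 members of the meiosis list were *Ythdc2*, *Terb2* and *Spo11*, the enzyme that makes the meiotic DNA breaks, which had the highest WT level of the 3, 0.361, beside 0.438 for *Pld6* KO and 0.154 for *Dnmt3l* KO.

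Of the piRNA pathway, all 7 members were under 0.2 in WT, against 60.9% of all members and 82.9% of all promoters tested. *Fkbp6*, 1 of them, was higher in *Pld6* KO by 0.3, against 1.34% of all members and 0.541% of all promoters tested. No curated RefSeq transcript began within 50 bp of the starts used for *Fkbp6* and *Pnldc1*. Another *Fkbp6* transcript began more than 1 kb away at a window with 58 positions. *Pnldc1*, the trimmer of piRNA ends, had levels of 0.0926 for WT, 0.309 for *Pld6* KO and 0 for *Dnmt3l* KO, and *Gtsf1*, a cofactor of PIWI proteins, had 0.0612, 0.180 and 0. *Tdrd12* went the other way, with 9 of 73 calls methylated in WT and 1 of 140 in *Pld6* KO. *Spocd1*, which links piRNAs to methylation, had 0 of 58 in WT, and *Piwil4* and *Gpat2* differed between WT and *Pld6* KO by under 0.1.

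Of 6 oocyte members, 5 were under 0.2 in WT, among them *Zp3* of the egg coat with 9 of 111 calls methylated and the kinase *Mos* with 3 of 41. The exception was *H1f8*, the linker histone of the oocyte, with 67 of 72 WT calls methylated, 66 of 74 for *Pld6* KO and 7 of 27 for *Dnmt3l* KO. Genes used later in spermatids were divided, with 7 of 13 members above 0.6 in WT, 4 under 0.2 and a median of 0.769. Of all members, 25.02% were above 0.6 and 60.9% under 0.2, and of all promoters tested 12.7% and 82.9%. The protamines and transition protein that pack sperm DNA lie in 1 cluster and were high: *Prm2* had 64 of 68 calls methylated in WT and 10 of 30 in *Dnmt3l* KO, *Prm1* 48 of 62 and 16 of 28, and *Tnp2* 50 of 65 and 12 of 38. *Tnp1*, on another chromosome, had 0.256 in WT, and the acrosomal gene *Acrbp* 11 of 164. Of the 13, 6 were lower in *Dnmt3l* KO by 0.3, against 28.5% of all members and 13% of all promoters tested. None differed by 0.3 in *Pld6* KO.

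Pluripotency genes were divided, with 5 of 9 members under 0.2 and 3 above 0.6 in WT. These shares were 60.9% and 25.02% of all members and 82.9% and 12.7% of all promoters tested. *Pou5f1* had a WT level of 0.0896 and *Zfp42* one of 0.0182, while *Nanog* had 0.80, with 0.573 in *Pld6* KO and 0.0833 in *Dnmt3l* KO. *Lefty1* and *Lefty2*, paired inhibitors of Nodal, had 0.846 and 0.750 in WT and 0.276 and 0.0588 in *Dnmt3l* KO. *Esrrb* lay between, with 0.549 in WT. In all, 4 of the 9 were lower in *Dnmt3l* KO by 0.3, against 28.5% of all members and 13% of all promoters tested.

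Genes of tissues other than the germ line were found in both states. Of 9 epidermis members, 6 were above 0.6 in WT, with a median of 0.864. *Krt5*, a keratin of the basal layer, had 50 of 56 calls methylated in WT and 7 of 31 in *Dnmt3l* KO, while *Dsc3*, a desmosomal cadherin, had 0 of 89 in WT. In the wider keratin family, 13 of 29 members were above 0.6 and 7 under 0.2, and 14 were lower in *Dnmt3l* KO by 0.3. Over all members, 25.02% were above 0.6 and 28.5% were lower in *Dnmt3l* KO, and over all promoters tested 12.7% and 13%. *Krt42* kept 16 of 26 calls methylated in *Dnmt3l* KO, whereas *Krt90* kept 3 of 23, from similar WT levels of 0.940 and 0.960.

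Of 16 muscle members, 8 were above 0.6 and 8 under 0.2 in WT, with none between. For this and the next lists, the shares over all members were 25.02% and 60.9%, and over all promoters tested 12.7% and 82.9%. Myoglobin (*Mb*) had 37 of 38 calls methylated in WT and the skeletal actin *Acta1* 37 of 43, while *Actn3* had 2 of 62 and *Ryr1*, the calcium release channel, 4 of 111. Of 15 blood cell members, 7 were above 0.6 and 6 under 0.2, with the T-cell kinase *Zap70* at 0.764 and the integrin *Itgal* at 0.0196. Of 26 interleukins, their receptors and chemokines, 10 were above 0.6 and 13 under 0.2, with *Il17c* at 0.957 and *Cxcl3* without a methylated call of 50. Of 5 liver members, *Pck1*, a key enzyme of glucose synthesis, had 46 of 49 calls methylated in WT and kept 14 of 23 in *Dnmt3l* KO, while *Apob* had 5 of 82 in WT.

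Neuron and glia genes had 5 of 7 members under 0.2, but *Dbh* and *Th*, enzymes of catecholamine synthesis, had WT levels of 0.935 and 0.853, and *Th* kept 0.60 in *Dnmt3l* KO. Potassium channel genes had 13 of 19 members under 0.2 in WT and 3 above 0.6. Collagens had 8 of 12 under 0.2, with *Col1a1* at 0.0278 and *Col6a5* at 0.907. Cytochrome P450 genes had 7 of 14 under 0.2 and 6 above 0.6. Beside these counts, 60.9% of all members were under 0.2 and 25.02% above 0.6, and 82.9% and 12.7% of all promoters tested. Genes of Sertoli, Leydig and peritubular cells, the somatic cells of the testis, had 5 members with WT levels from 0.0432 to 0.474, with 3 of them under 0.2.

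Genes of the ribosomes and the proteasome mostly had CpG-dense promoters and contributed few members. All 4 proteasome members, *Psma3*, *Psmd2*, *Psma8* and *Psmb10*, were under 0.2 in WT, against 60.9% of all members and 82.9% of all promoters tested. Of these, *Psmd2* had 0 of 60 calls methylated. Of 4 mitochondrial ribosome members, 3 were under 0.2, and *Mrpl24* was at 0.852. The 6 members matched by cytosolic ribosomal names had a median of 0.757 in WT, but 3 of them, *Rps23rg1*, *Rpl34-ps1* and *Rpl37rt*, bear the names of retrotransposed or pseudogene copies. *Rpl22* had 46 of 62 calls methylated in WT and 0 of 27 in *Dnmt3l* KO, with its listed start holding 15 positions, while *Rpl29* and *Rpl38* had WT levels of 0.0423 and 0.0448.

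**Figure D5:**
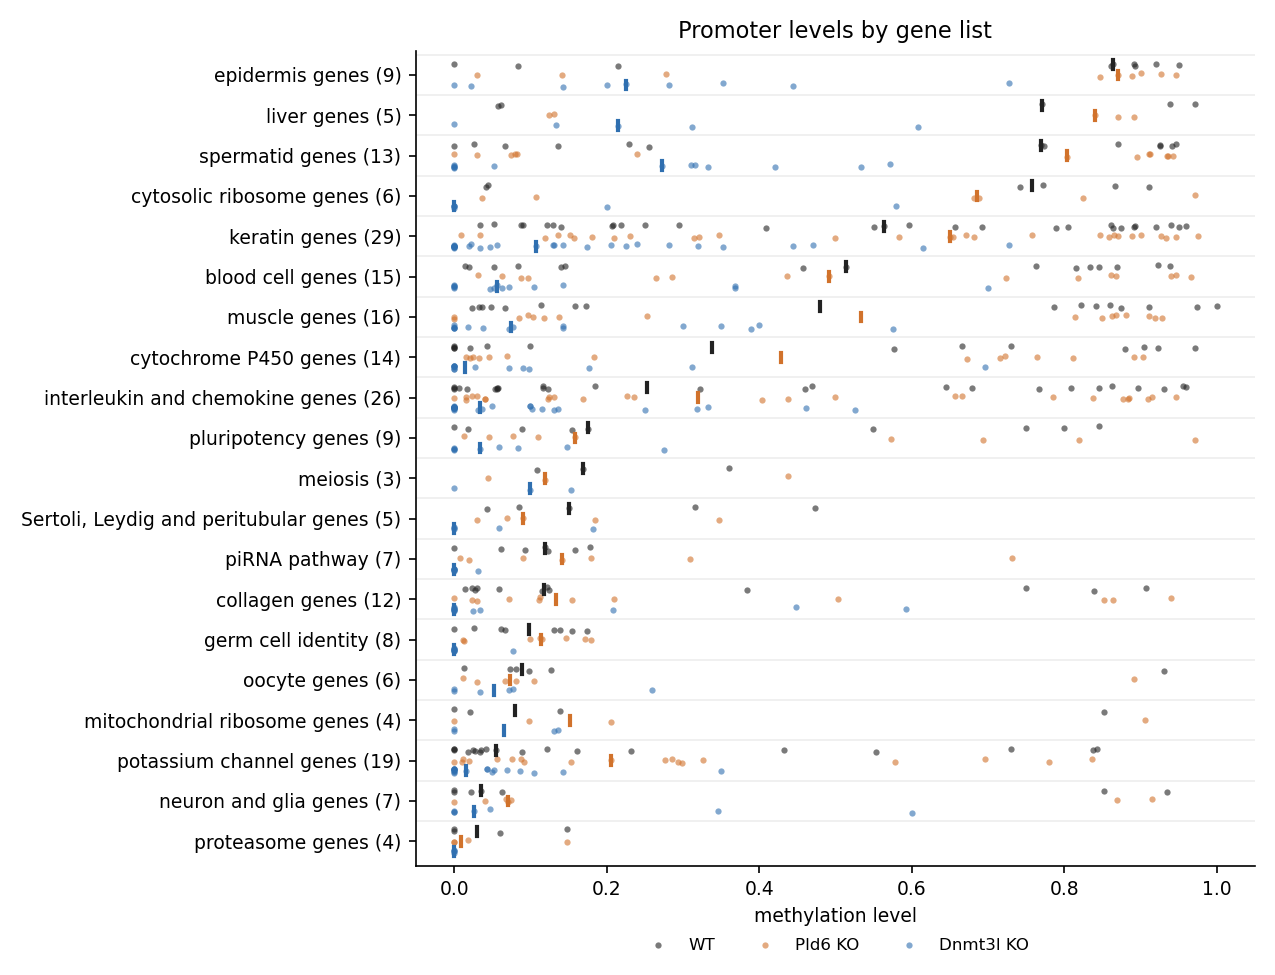
Methylation level (horizontal axis) of every member of 20 gene lists in each library, with the number of members in parentheses, 1 point for each promoter and a bar at the median, ordered by the WT median. Germ cell identity and piRNA genes lay under 0.2 in WT, as did 60.9% of all members. Epidermis and spermatid genes had medians of 0.864 and 0.769. The piRNA gene *Fkbp6*, whose start had no curated transcript within 50 bp, lay at 0.732 in *Pld6* KO.

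The position of the annotated start bears on these levels. A curated RefSeq transcript began within 50 bp of it in 1677 members, or 62.3%, with a median WT level of 0.132 against 0.0952 in the others. Among the others were *Zfp109*, *Osbpl7*, *Axin1*, *A530016L24Rik*, *Tnni1*, *Abcc6*, *Gm37116* and further genes named above. In 385 members another transcript of the gene began more than 1 kb away at a window with over 30 positions, and these had a median of 0.158 against 0.114. Among the genes named above, such a window held 107 positions in *Cacna1d*, 102 in *Axin1*, 83 in *Akap7* and 63 in *Rpl22*. It held 62 in *St6galnac6*, 58 in *Fkbp6* and 36 in *Mrpl24*, and other named genes had one too. The levels given for these genes are those of the listed start only. In 294 members the start of another gene lay within 1 kb, and their median was 0.0526 against 0.128. The share of members lower in *Dnmt3l* KO was 15.6% where another gene started within 1 kb and 30.1% elsewhere.

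Short motifs were searched on both strands in the 300 bases around each start, as a description of letters and not of binding. GGGCGG, the GC box, was present in 25.6% of members under 0.2 in WT and 16.3% of those above 0.6, against 52.2% of all promoters tested. CCGGAAG, an ETS motif, was in 6.90% and 1.93%, against 13.4%, and TCCCGC, an E2F motif, in 12.6% and 8.17%, against 29.1%. CCAAT, which holds no CG, was in 39.9% and 29.6%, against 37.7%. TATAAA was in 14.1% and 16.3%, against 9.70%, and CACGTG, an E-box, in 6.17% and 6.24%, against 9.22%. TGACGTCA, GCGCATGC and AAGATGGC, the motifs of CREB, NRF1 and YY1, were in under 2% of either group. Members under 0.2 held more CpGs, and motifs with a CG share that difference.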

How the data were processed

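PBAT libraries of P7 spermatogonia, 1 for each genotype, were used. The authors sequenced single-end reads of 100 bp and mapped them with Bismark to mm10. Removal of duplicates is not given in the sources used here. The authors deposited, per CpG site, methylated and unmethylated counts of calls and their fraction, and levels here were computed from the counts. All listed autosomal sites lay at the C of a CG of GRCm38.p6. The biological replicates that the methods describe were not analysed here.

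Starts came from the RefSeq annotation of GRCm38.p6, and calls were pooled over 500 bp on each side. A difference was counted when it reached 0.3, a size the study used for severe effects at retrotransposons and applied to promoters here. Python 3.11.15, numpy 2.4.6, pandas 2.3.3, scipy 1.17.1 and blastn 2.17.0 were used. The intervals, the count at 0.3 and Fisher's exact test were tried on simulated calls without links between them, and the other steps were not. With 1 library for each genotype no test was made. Fisher's exact test on calls with Benjamini-Hochberg adjustment over all promoters, an alternative, compares libraries only.

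The members, gene lists and amplicon comparison were chosen with earlier results of these data known. Named were the 6 well-covered members (30 or more calls in each library) with the largest differences of each kind and the 6 highest in *Dnmt3l* KO, except 1 that is not reported here. From each list up to 4 members with the highest and up to 2 with the lowest WT level were named, if each library held 20 or more calls. The 10 members lower in *Pld6* KO, *Fkbp6*, *Trim50*, *St6galnac6*, *Gper1* and list members with fewer calls or at other ranks were named after their values were seen. The alternatives changed the minimum of calls, the window, the range and count of CpG positions, the sites pooled, the starts used and the size of the difference.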

Additional observations from a re-analysis of the deposited data

How the results depend on the processing

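No paired analysis was possible because each genotype had 1 library. For the difference counts, a limit of 0.2 gave 36 members lower and 125 higher in *Pld6* KO, and a limit of 0.4 gave 8 higher. Fisher's exact test on the calls, adjusted over 15526 promoters, gave 766 lower in *Dnmt3l* KO, 692 of them among those lower by 0.3, 13 lower in *Pld6* KO, which included all 10, and 41 higher, which included 23 of the 36. Over all promoters tested, 11.1% were lower in *Dnmt3l* KO by this test, and 0.161% were lower and 0.451% higher in *Pld6* KO. It compares libraries only.

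With at least 20 calls in each library, 1807 members remained. Their medians were 0.0952 in WT and 0.114 in *Pld6* KO, 20.6% were above 0.6, 65.5% were under 0.2, and the ratio was 0.260. The counts were 452 lower in *Dnmt3l* KO, 5 lower and 23 higher in *Pld6* KO. A window of 250 bp on each side gave medians of 0.0714 and 0.0938, shares of 20.2% and 66.1%, a ratio of 0.237 and 424 lower in *Dnmt3l* KO. A window of 1000 bp gave medians of 0.181 and 0.212, with 0.0357 in *Dnmt3l* KO, 53.0% under 0.2, a ratio of 0.351 and 17 higher in *Pld6* KO. Positions counted in the reference gave medians of 0.140 and 0.172 and shares of 27.8% and 56.7%. From 18 to 27 positions, the medians were 0.101 and 0.118, the shares 20.9% and 64.8%, the ratio 0.254, and the counts 420 lower in *Dnmt3l* KO and 19 higher in *Pld6* KO. Without members near another gene start, the *Pld6* KO median was 0.152.

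Of 3 alternatives chosen after seeing the data, curated starts gave medians of 0.132 and 0.154, shares of 27.8% and 58.5% and 19 higher in *Pld6* KO, and members with under 25% masked bases gave 2 lower in *Pld6* KO. A minimum of 5 calls, sites listed in all 3 files, sites with at most 20 calls, the mean of site levels and members without a denser start elsewhere moved none of these values beyond its interval or, for counts, 1.5 times. No value changed direction. Of 2160 recomputed differences of named genes, 2091 stayed within the interval of the main value, 69 lay outside it and 0 changed sign among those past 0.3. Where a value moved, the cause was not tested. Counts also depend on the size of the set, but smaller sets did not always give smaller counts. The window of 250 bp, with 1747 members, gave 15 lower and 47 higher in *Pld6* KO, against 10 and 36 of 2690. Low depth in *Dnmt3l* KO limits the single levels there: by the Wilson interval, 0 of 24 calls allows a level of up to 0.138.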
